A study of Mus musculus with 6 samples.

Results

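Ubiquitin conjugation and deubiquitination genes were followed in RAW 264.7 cells, a mouse macrophage-like line, given lipopolysaccharide (LPS, 100 ng/ml, a bacterial cell wall component) together with LPS-binding protein (100 pM) and compared with untreated cells, both cultured for 16 hours. The genes are those whose platform symbol begins with Ube2, Ube3, Usp and a digit, Fbxo, Fbxw or Fbxl, except Usp18 and Ube2c. This name rule reads symbols only, though members were chosen with earlier results of these data known. It found 81 of the 10698 genes that a probe named alone, and 76 of them had a ratio on all 6 arrays (of 9607 genes in all). The labels name no genetic change and no further agent in either group. Treated and untreated RNA were hybridised together on each 2-colour array, with treated RNA in Cy5 on 3 arrays and in Cy3 on 3, and each orientation held sets 1, 2 and 3. The sources call the line 264.7 in most places and 264.4 in a few.

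Values are log2 ratios of treated over untreated cells. The table does not state its direction, which was read as Cy5 over Cy3. That reading is likely, since Cy5 marks what the labels name the test RNA. A gene's value is its mean ± SD (n = 3 sets, after averaging the 2 dye orientations within a set), and a gene is said to rise or fall where limma's adjusted p lay under 0.05. The labels do not say that sets are separate cultures, so the p-values reflect variation among these hybridisations that may be only technical. A ratio carries no level, so the line's identity could be checked only as a difference. Of 6 measured macrophage markers 4 rose and 2 fell, and of 6 fibroblast and 4 lymphocyte markers 2 and 1 rose and 0 fell. Only 1 macrophage marker fell without set 1 or without set 2, and 1 fibroblast marker rose without set 2. The fibroblast markers that rose were Lum (1.39 ± 0.39) and Dcn (0.54 ± 0.44), and the lymphocyte marker was Cd79a (0.35 ± 0.12). Their part in the results below was not tested.

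Ubiquitin is attached to proteins in a relay. An activating enzyme (E1) loads it onto a conjugating enzyme (E2, mostly the Ube2 genes), and a ligase (E3) chooses the substrate. The Ube3 genes encode HECT ligases, which carry ubiquitin themselves, and the F-box genes (Fbxl, Fbxo, Fbxw) encode the substrate-binding subunits of cullin ligases built on Skp1 and Cul1. The Usp genes encode cysteine proteases that remove ubiquitin again. Small relatives such as ISG15 and NEDD8 use parallel relays, and in macrophages ubiquitin chains carry Toll-like receptor signals to NF-kappaB.

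Of these genes 3 are shown by their promoters because they mark the directions described below. Ube2l6 had the largest rise, and Ube2t and Fbxo5, which act in DNA repair and in the cell cycle, both fell. The sequences are the 250 bases before the RefSeq start in build GRCm38.p6, 5′ to 3′ on the gene's strand, with CCAAT (or ATTGG on the other strand) in capitals. They lie at chr2:84798578-84798827 (plus strand, Ube2l6), chr1:134962315-134962564 (plus strand, Ube2t) and chr10:5805466-5805715 (minus strand, Fbxo5).
Ube2l6: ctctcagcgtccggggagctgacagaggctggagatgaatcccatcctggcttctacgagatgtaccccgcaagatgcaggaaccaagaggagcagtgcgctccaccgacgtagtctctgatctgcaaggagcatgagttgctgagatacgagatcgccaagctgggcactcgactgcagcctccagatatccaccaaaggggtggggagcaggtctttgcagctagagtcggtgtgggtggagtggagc
Ube2t: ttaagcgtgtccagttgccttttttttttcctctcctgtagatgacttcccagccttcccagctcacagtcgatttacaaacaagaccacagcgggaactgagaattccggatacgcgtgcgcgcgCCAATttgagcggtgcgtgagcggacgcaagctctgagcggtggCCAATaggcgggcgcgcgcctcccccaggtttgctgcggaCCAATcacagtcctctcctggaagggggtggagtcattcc
Fbxo5: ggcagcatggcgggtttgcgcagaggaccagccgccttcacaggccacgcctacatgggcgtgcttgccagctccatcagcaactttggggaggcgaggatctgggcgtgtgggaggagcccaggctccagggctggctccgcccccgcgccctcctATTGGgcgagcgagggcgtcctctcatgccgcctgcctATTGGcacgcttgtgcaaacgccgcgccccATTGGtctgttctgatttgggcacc

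Both Ube2t and Fbxo5 held 3 CCAAT boxes, at -124, -80 and -40 and at -93, -55 and -25 from the start, whereas Ube2l6 held none. At least 3 were found in 2.79% of all 32851 promoter windows of this length. Of the 57 measured members with a window, 4 held as many (7.02%), the others being Ube2f, which rose, and Usp17lc, which was not called. Here and below, shares of windows and of members differ in unit, since a member counted once if any of its windows matched. CCAAT was searched after the sequences had been read, and 33.85% of all windows held at least 1, as did 17 of the 57 members (29.8%). These 17 included 4 that rose (Fbxl12, Ube2d3, Ube2f and Usp11), 3 that fell (Fbxo5, Ube2l3 and Ube2t) and 10 that were not called. The other letters searched on both strands were the interferon response core GAAANNGAA (7.13% of all windows), the gamma-activated site TTCNNNGAA (7.02%), the NF-kappaB site GGANTTTCC (1.07%), the E2F site TTTNNCGC (4.28%), the cell cycle homology region TTTGAA (15.99%) and the E-box CACGTG (6.02%). None of these 6 was present in the 3 windows shown. The interferon core was found in 3 of the 57 members with a window (5.3%), of which Ube2d3 and Usp11 rose and 1 was not called. The gamma-activated site was in 8 (14.0%, Ube2d3 up and Ube2cbp down), the NF-kappaB site in 1 (1.8%, not called), and the E2F site in 5 (8.8%, Usp19 up and Usp48 down). The cell cycle homology region was in 8 (14.0%, Ube2f up) and the E-box in 4 (7.0%, Ube2b up), with the remaining matches in genes that were not called. Motifs were allowed to overlap, and a match describes letters only.

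Most of the 76 genes moved little, and the share that changed lay near that of all genes. Of the 76, 13 rose and 10 fell, which is 30.3% against 31.4% of all 9607 genes tested. The shares that rose (17.1%) and fell (13.2%) also lay near those of all genes (16.8% and 14.6%). Their median log2 ratio was -0.002, against -0.008 over all genes, and 61.8% stayed within 1.2-fold of the untreated level, against 67.5% of all genes. Only Ube2l6 rose at least 2-fold, and only Usp2 and Fbxo31 fell at least 2-fold. All 23 genes that changed had one sign on all 6 arrays.

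**Figure D1:**
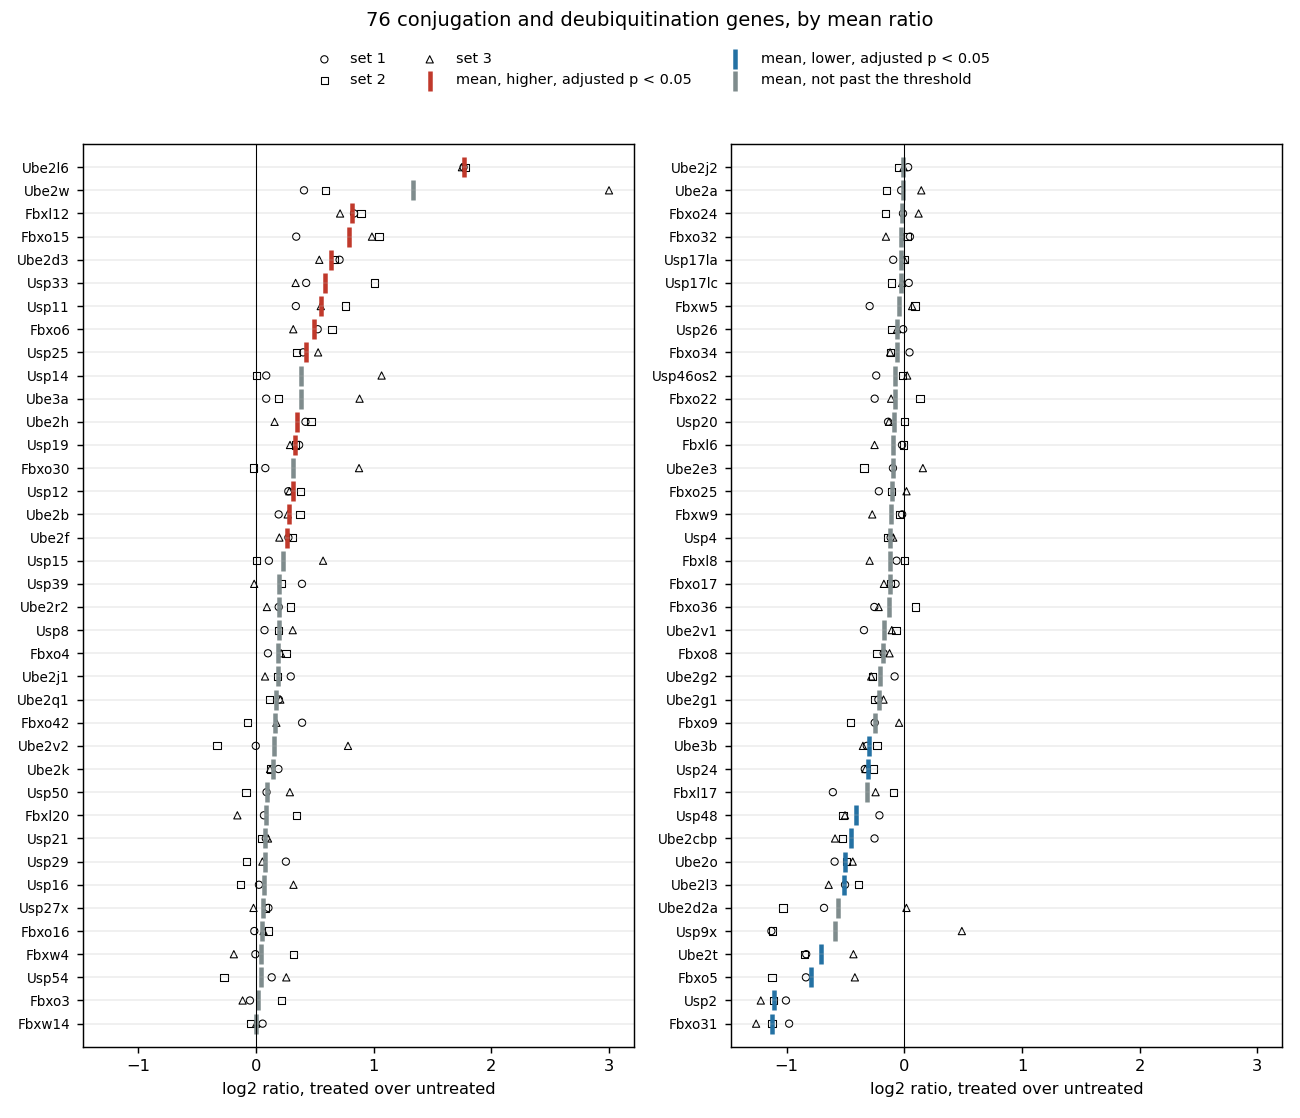
Log2 ratio of treated over untreated cells (x axis) for the 76 measured genes, ordered by their mean (y axis). Open symbols are the 3 sets, each the mean of 2 arrays, and vertical bars are means, coloured by limma's call. Ube2l6 stands highest among the genes that rose, at 1.77, with its sets almost on top of each other, while Ube2w and Usp9x show set 3 far from the other sets.

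Of 22 measured genes with the Ube2 prefix 5 rose (22.7%, against 16.8% of all genes) and 4 fell (18.2%, against 14.6%), with a median of 0.07. The prefix also takes in Ube2cbp, a ligase, and Ube2v1 and Ube2v2, which have no catalytic cysteine. Ube2l6, the conjugating enzyme of the interferon-induced modifier ISG15, gave log2 ratios of 1.91, 1.97 and 1.82 where treated RNA carried Cy5 and of 1.62, 1.59 and 1.68 with the dyes exchanged. All 6 values lay far above 0 and close together. The gene rose 3.40-fold (log2 1.77 ± 0.02, adjusted p = 7.5e-06). Ube2d3, a widely used conjugating enzyme that works with many RING ligases, read 0.83, 0.85 and 0.63 with treated RNA in Cy5 and 0.59, 0.49 and 0.45 in Cy3. It rose 1.56-fold (log2 0.64 ± 0.09, adjusted p = 0.000882), and all 6 arrays were positive.

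The ISG15 relay can be read gene by gene. Isg15 itself rose by a log2 ratio of 3.76 ± 0.07, its activating enzyme Uba7 by 1.92 ± 0.16 and the ligase Herc6 by 2.07 ± 0.33. Usp18, the protease that removes ISG15 and that the name rule leaves out, rose by 2.71 ± 0.30. On an interferon-stimulated list, fixed for context, 22 of 22 measured genes rose (100.0%, against 16.8% of all genes), with a median of 2.40. That list includes Isg15, Uba7 and Herc6, so it partly repeats the values above. It was chosen with earlier results of these data known and was not tested as a set. The closest relative of Ube2l6 in name, Ube2l3, which serves HECT and RBR ligases, moved the other way. On single arrays Ube2l3 read -0.41, -0.17 and -0.56 with treated RNA in Cy5 and -0.59, -0.61 and -0.73 in Cy3, all below 0. It fell 1.43-fold (log2 -0.51 ± 0.13, adjusted p = 0.00308). With treated RNA in Cy5 alone it missed the threshold (-0.38, adjusted p = 0.0554).

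The smaller rises were those of Ube2h (log2 0.35 ± 0.17, adjusted p = 0.0207), Ube2b (0.28 ± 0.09, adjusted p = 0.0271), an enzyme of DNA damage tolerance, and Ube2f (0.26 ± 0.06, adjusted p = 0.0286), a NEDD8-conjugating enzyme. All 3 were lost without set 1 (values 0.31, 0.32 and 0.26, adjusted p = 0.11, 0.0663 and 0.127) and without set 2 (0.29, 0.23 and 0.24, adjusted p = 0.102, 0.125 and 0.117), which left 3 and 2 Ube2 genes up. In these fits 22.5% (without set 1) and 23.6% (without set 2) of all genes were called, against 31.4% with all sets. Ube2a, the close relative of Ube2b, was at -0.01 ± 0.15.

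Ube2t, which attaches ubiquitin to FANCD2 in DNA crosslink repair, had the lowest mean among the Ube2 genes. Its ratios were -0.74, -0.91 and -0.40 with treated RNA in Cy5 and -0.93, -0.79 and -0.46 in Cy3. Both arrays of set 3 were nearest to 0. The fall was 1.63-fold (log2 -0.71 ± 0.24, adjusted p = 0.00227). Ube2o, which combines conjugating and ligase activity, fell 1.42-fold (-0.51 ± 0.08, adjusted p = 0.00222), and its 2 probes stood at -0.71 and -0.31. Ube2cbp, named for binding Ube2c, fell 1.37-fold, at -0.46 ± 0.18 (adjusted p = 0.00808). Ube2c, the mitotic conjugating enzyme left out by the name rule, fell by 1.14 ± 0.35.

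Ube2 genes that did not pass included Ube2g1 (-0.22 ± 0.04, adjusted p = 0.0536), Ube2k (0.15 ± 0.04), Ube2r2 (0.19 ± 0.10), Ube2q1 (0.17 ± 0.05), Ube2e3 (-0.09 ± 0.25) and those of endoplasmic reticulum degradation, Ube2j1 (0.19 ± 0.11), Ube2j2 (-0.01 ± 0.04) and Ube2g2 (-0.21 ± 0.11). The probes of Ube2g2 disagreed, at -0.43 (adjusted p = 0.00475 over all probes) and 0.01. Ube2v1 (-0.17 ± 0.15) and Ube2v2 (0.15 ± 0.57) each pair with Ube2n to build non-degradative chains, a kind that Toll-like receptor signalling also uses. Ube2v2 was measured by 2 probes at -0.32 and 0.62, neither of them called. Ube2n had a ratio on 5 arrays, of 0.26, 0.60 and 0.47 with treated RNA in Cy5 and of -0.50 and -0.50 in Cy3, so its sign followed the dye.

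Between the HECT ligases, Ube3b fell 1.23-fold (log2 -0.30 ± 0.06, adjusted p = 0.0175), a call lost without set 1 (-0.29, adjusted p = 0.09). Ube3a, the ligase affected in Angelman syndrome, stood at 0.39 ± 0.43 (adjusted p = 0.103), with 0.09 and 0.19 in sets 1 and 2 and 0.88 in set 3. It was thus positive in every set, and most so in set 3.

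Deubiquitinases of the Usp family rose in 5 of 25 cases (20.0%, against 16.8% of all genes) and fell in 3 (12.0%, against 14.6%), with a median of 0.07. The outstanding fall was that of Usp2, a clock-regulated protease whose known targets include Mdm2 and cyclin D1. Its ratios were -1.05, -1.42 and -1.24 with treated RNA in Cy5 and -0.97, -0.80 and -1.20 in Cy3. All 6 lay well below 0, and the gene fell 2.16-fold (log2 -1.11 ± 0.11, adjusted p = 8.9e-05). Usp48 (-0.41 ± 0.17, adjusted p = 0.0117) and Usp24 (-0.31 ± 0.04, adjusted p = 0.014) fell less. Without set 2 the call of Usp48 was lost (-0.36, adjusted p = 0.0613), and without set 1 that of Usp24 (-0.30, adjusted p = 0.0805).

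Rises in this family stayed under 2-fold. Usp33, which acts on recycling receptors, was highest, at 0.59 ± 0.36 (adjusted p = 0.0147), and its sets 1, 2 and 3 read 0.43, 1.00 and 0.34. Usp11, linked to DNA repair, rose 1.47-fold (0.55 ± 0.21, adjusted p = 0.00512). Usp25, which acts on TRAF proteins in Toll-like receptor signalling, read 0.27, 0.08 and 0.38 with treated RNA in Cy5 and 0.54, 0.61 and 0.67 in Cy3. It was positive on all arrays and higher in the Cy3 orientation, and it rose 1.34-fold (0.42 ± 0.10, adjusted p = 0.00538). In the Cy5 orientation alone it was at 0.24 (adjusted p = 0.158), and Usp33 at 0.45 (adjusted p = 0.0727).

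Usp19, a protease anchored in the endoplasmic reticulum (0.33 ± 0.04, adjusted p = 0.0109), and Usp12 (0.31 ± 0.06, adjusted p = 0.0146) rose slightly. Without set 1 both lost their calls (0.31 and 0.33, adjusted p = 0.0683 and 0.061), which left 3 Usp genes up, and Usp12 also without set 2 (0.28, adjusted p = 0.0714). The called share over all genes was also lower in these fits, at 22.5% without set 1 and 23.6% without set 2. With all sets, the other 17 Usp genes did not pass. Usp4 was at -0.12 ± 0.03, the endosomal Usp8 at 0.19 ± 0.12, Usp15 at 0.23 ± 0.30 and the proteasome-bound Usp14 at 0.39 ± 0.59. Usp39, a splicing protein without protease activity, was at 0.20 ± 0.20. Usp17la and Usp17lc (each -0.03) have near-identical copies, so their probes may not tell them apart. One symbol the rule took, Usp46os2, names an antisense transcript and no enzyme, and stood at -0.08 ± 0.14.

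F-box genes changed in 5 of 27 cases (18.5%, against 31.4% of all genes), with 3 up (11.1%, against 16.8%) and 2 down (7.41%, against 14.6%). Fbxo31, which directs cyclin D1 to degradation after DNA damage, gave ratios of -0.94, -1.24 and -1.15 with treated RNA in Cy5 and of -1.01, -1.01 and -1.37 in Cy3. No array came near 0. It fell 2.17-fold (log2 -1.12 ± 0.14, adjusted p = 0.000116), the lowest mean of the 76 genes. Fbxo5 (Emi1), the inhibitor of the anaphase-promoting complex, read -0.78, -1.17 and -0.40 in the Cy5 orientation and -0.89, -1.08 and -0.44 in the other. It fell 1.73-fold (-0.79 ± 0.35, adjusted p = 0.00415), and like Ube2t it was nearest to 0 in set 3. On a context list of mitosis and replication genes, 21 of 26 fell (80.8%, against 14.6% of all genes) and 0 rose, with a median of -0.75.

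Fbxl12, a subunit known to act on the cell cycle inhibitor p57, rose 1.76-fold (log2 0.81 ± 0.09, adjusted p = 0.000314). Its 6 ratios ran from 0.68 to 1.01, with both orientations alike. Fbxo15, known from embryonic stem cells, rose 1.73-fold (0.79 ± 0.39, adjusted p = 0.00565) but its sets 1, 2 and 3 read 0.34, 1.05 and 0.99. Fbxo6, which binds sugar chains of misfolded glycoproteins, rose 1.41-fold (0.50 ± 0.17, adjusted p = 0.00512), and its 2 probes, at 0.55 and 0.44, were both called.

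The remaining F-box genes lay between -0.31 (Fbxl17, SD 0.27, adjusted p = 0.0679) and 0.31 (Fbxo30, SD 0.49, adjusted p = 0.225). Fbxo32, the muscle atrophy ligase, was at -0.03 ± 0.11. Fbxl8 (-0.12 ± 0.16), Fbxl20 (0.09 ± 0.25, with probes at 0.45, adjusted p = 0.0313 over all probes, and -0.28), Fbxw4 (0.04 ± 0.26), Fbxw9 (-0.11 ± 0.14) and Fbxw5 (-0.05 ± 0.22) were likewise not called. None of the 4 measured Fbxw genes passed in limma. Fbxw14 (0.00 ± 0.05) belongs to a cluster of near-identical copies and is uncertain.

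Without a full set of ratios, 5 of the 81 genes were not tested. Besides Ube2n, Ube2e1 had 4 ratios between -0.07 and 0.32, Fbxw27 5 between -0.38 and 0.15, Fbxw2 2 (-0.26 and 0.24) and Usp10 0. Of the 35 genes the naming rule fixed, 13 had no probe that named them alone, among them Ube2m, Ube2s, Usp7, Fbxw7 and Fbxw11.

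Other parts of the system are given from lists fixed for this comparison, none of which was tested as a set. Their counts stand beside shares over all genes of 16.8% up and 14.6% down. Without set 1, set 2 or set 3, the share of all genes called in either direction was 22.5%, 23.6% and 31.1%. Of 4 activating enzymes 2 rose and 1 fell, with Uba7 followed by Uba3 (0.59 ± 0.41), a subunit of the NEDD8 activating enzyme, and Sae1 (-0.58 ± 0.19), a subunit of that for SUMO. Of 10 modifiers, Isg15 and the autophagy modifier Atg12 (0.70 ± 0.26) rose and Nedd8 (-0.34 ± 0.14) fell; without set 2 that fall was lost, leaving 0 down, and without set 3 there were 3 down. Among 18 genes on a cullin ligase list 9 fell (50.0%) and 1 rose (5.56%), with a median of -0.24. The list holds the F-box proteins Skp2, Btrc and Ccnf and the cofactor Cks1b as well as cullins and their partners. The falls were led by the F-box protein Skp2 (-0.97 ± 0.14) and its cofactor Cks1b (-0.94 ± 0.18), which help to degrade the cell cycle inhibitor p27. The gene that rose was Cul5 (0.38 ± 0.08), the cullin that Ube2f serves, while Rnf7 on the same list fell (-0.64 ± 0.16). Without set 3, 2 genes of this list rose. Cul1, the scaffold of F-box ligases, fell (-0.36 ± 0.20), while Skp1, which joins F-box proteins to it, was at 0.43 ± 1.04, with -0.20, -0.15 and 1.62 in sets 1 to 3.

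On a list of RING ligases drawn up for innate signalling, 12 of 21 genes rose (57.1%, against 16.8% of all genes) and 2 fell (9.52%, against 14.6%). Its median was 0.28. The list also holds ligases not particular to innate signalling, such as Mdm2 and Nosip, which rose, Siah2, which fell, and Stub1, which was not called. Trim30a (3.03 ± 0.69) and the apoptosis inhibitor Birc3 (1.51 ± 0.31) rose most, and Trim27 (-0.35 ± 0.01) and Siah2 (-0.34 ± 0.07) fell. Traf6, which works with Ube2n, was at 0.03 ± 0.05. HECT and RBR ligases outside Ube3 rose in 6 of 16 cases (37.5%) and fell in 3 (18.8%), led by Herc6 and Rnf19b (1.74 ± 0.19), and by Huwe1 (-0.48 ± 0.17) and Rnf19a (-0.36 ± 0.10) downward. On the list of other deubiquitinase families 7 of 21 genes rose (33.3%) and 2 fell (9.52%). That list also holds proteases of SUMO and NEDD8, and of these Senp2 (0.24 ± 0.09, for SUMO) and Cops5 (0.27 ± 0.10, for NEDD8) were among the rises. Otub2 (2.04 ± 0.30) and Tnfaip3 (0.99 ± 0.08), the A20 protein that ends NF-kappaB signals, led the rises, against Josd2 (-0.37 ± 0.18) and Bap1 (-0.28 ± 0.06). Without set 1 the counts down were 1 for RING ligases, 1 for HECT and RBR ligases and 0 for the deubiquitinase list, of which 4 then rose. The 2 falls on that list were also lost without set 2, and 1 was left without set 3. In the anaphase-promoting complex 3 of 9 fell (33.3%), namely Cdc20 (-1.08 ± 0.27), which is also on the mitosis list, Anapc11 (-0.38 ± 0.10) and Anapc5 (-0.28 ± 0.12), and 1 fell without set 1.

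**Figure D2:**
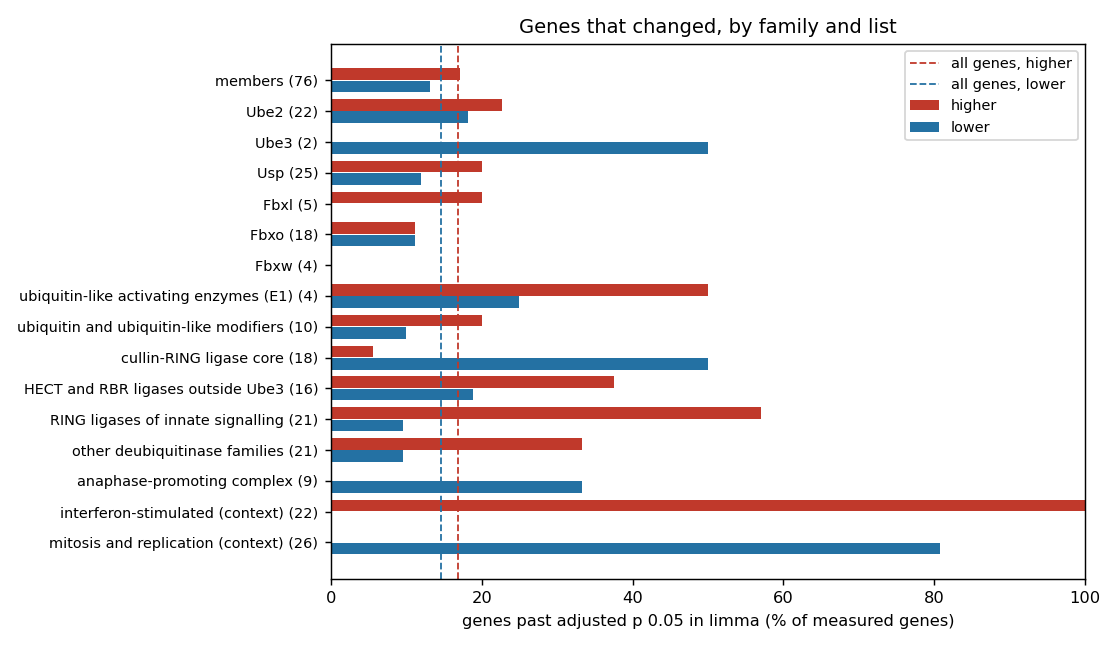
Share of measured genes (x axis, percent) that rose (red) or fell (blue) at an adjusted p under 0.05 in limma, by gene family and list (y axis, number measured in brackets), with the shares over all 9607 genes as dashed lines. The 76 members lie near both lines, while the context lists of interferon-stimulated and mitosis genes lie far from them.

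Set 3 differed from the other sets in several of these genes. After the values had been seen, genes were counted whose set 3 ratio exceeded both other sets by more than 0.5. This held for 7 of 76 members (9.21%) against 3.31% of all genes, while 0 members had set 3 below both others by that margin. The same count was 0 for set 1 (0.0833% of all genes) and 1 for set 2 (Usp33, 1.32% against 0.562%). Below both other sets by that margin lay 1 member in set 1 (Fbxo15, 1.32% against 0.385%) and 0 in set 2 (0.583% of all genes). The 7 genes were Ube2w, Usp9x, Usp14, Ube2v2, Ube2d2a, Fbxo30 and Ube3a.

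Ube2w, which places ubiquitin on the amino terminus of proteins, read 0.42, 0.67 and 3.14 with treated RNA in Cy5 and 0.39, 0.52 and 2.86 in Cy3. All 6 were positive, with set 3 far above the rest. Its mean of 1.33 ± 1.45 did not pass (adjusted p = 0.0691), and without set 3 it was at 0.50 and passed (adjusted p = 0.0011), as it did without set 1 (1.80, adjusted p = 0.0494). Usp9x, an X-linked protease known to stabilise the survival protein Mcl1, changed sign between sets. It read -1.08, -1.08 and 0.64 in the Cy5 orientation and -1.17, -1.17 and 0.34 in the other, with a mean of -0.59 ± 0.93 (adjusted p = 0.201). Without set 3, that is from sets 1 and 2 alone, it was at -1.13 (adjusted p = 1.29e-07).

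Ube2d2a, a near relative of Ube2d3, showed -0.68, -1.03 and 0.02 in sets 1 to 3 (adjusted p = 0.0545), and without set 3 -0.86 (adjusted p = 9.34e-06). Members of the Ube2d group are so alike in sequence that a probe may bind several of them, and probe sequences were not analysed here. Usp14 stood at 0.09, 0.00 and 1.07 and Fbxo30 at 0.08, -0.02 and 0.88 over the 3 sets, near 0 in sets 1 and 2 and high in set 3. Without set 3, Fbxl17 (-0.35, adjusted p = 0.034), Fbxo9 (-0.35, adjusted p = 0.0147) and Usp39 (0.31, adjusted p = 0.0319) also passed. In that fit 15 of 76 members rose and 14 fell, and 31.1% of all genes were called. Fbxl17 passed as well without set 2 (-0.43, adjusted p = 0.046). Fits without set 3 rest on sets 1 and 2 alone. Ube2w, Usp9x and Ube2d2a were counted above because their set 3 exceeded the other sets. Their low adjusted p-values without set 3 are therefore no separate evidence of a change. What set 3 did differently was not tested.

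**Figure D3:**
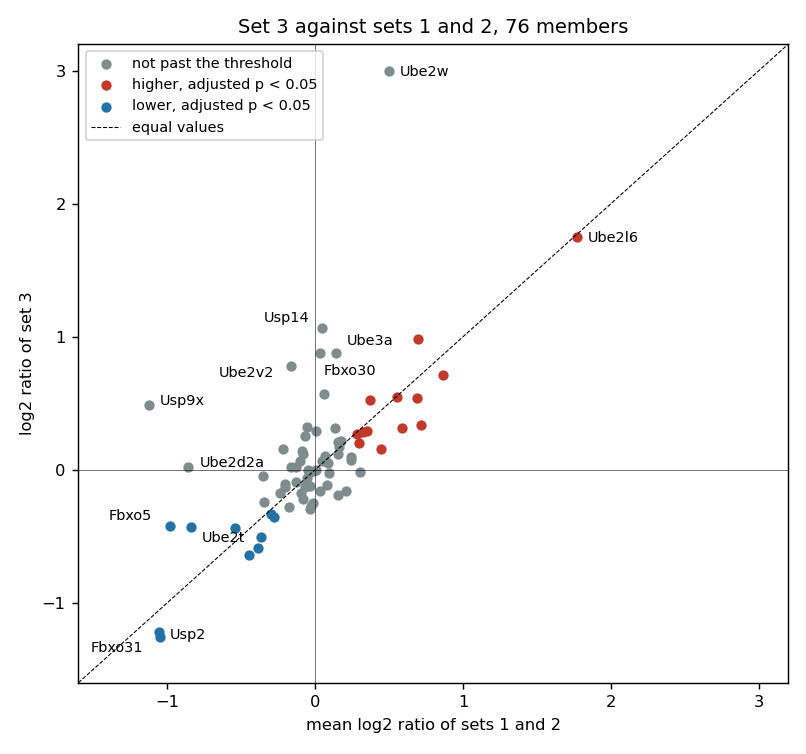
Log2 ratio of set 3 (y axis) against the mean of sets 1 and 2 (x axis) for the 76 genes, each point 1 gene coloured by limma's call, with a dashed line of equal values. Ube2w, Usp9x, Usp14 and Ube2d2a lie above the line, while Ube2l6, Usp2 and Fbxo31 lie near it.

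All 23 genes that changed kept their sign in both dye orientations, though the size differed for some. Usp25 averaged 0.24 with treated RNA in Cy5 and 0.61 in Cy3, Usp12 0.19 and 0.43, and Usp11 0.73 and 0.37. In a model of the 6 arrays with treatment and dye, 0 of 76 members had a dye effect past an adjusted p of 0.05 in limma (lowest 0.103). Over all genes 35 of 9607 did (0.364%). At an unadjusted p under 0.05 in limma lay 10 members, a threshold at which all genes were not counted. In 5 members every array of one orientation was positive and every array of the other negative. These were Usp29 (mean 0.46 with treated RNA in Cy5 and -0.30 in Cy3), Fbxo16, Fbxw14, Ube2j2 and Usp17la, all near 0 after averaging, and their share of 6.58% compares with 6.43% of all genes.

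**Figure D4:**
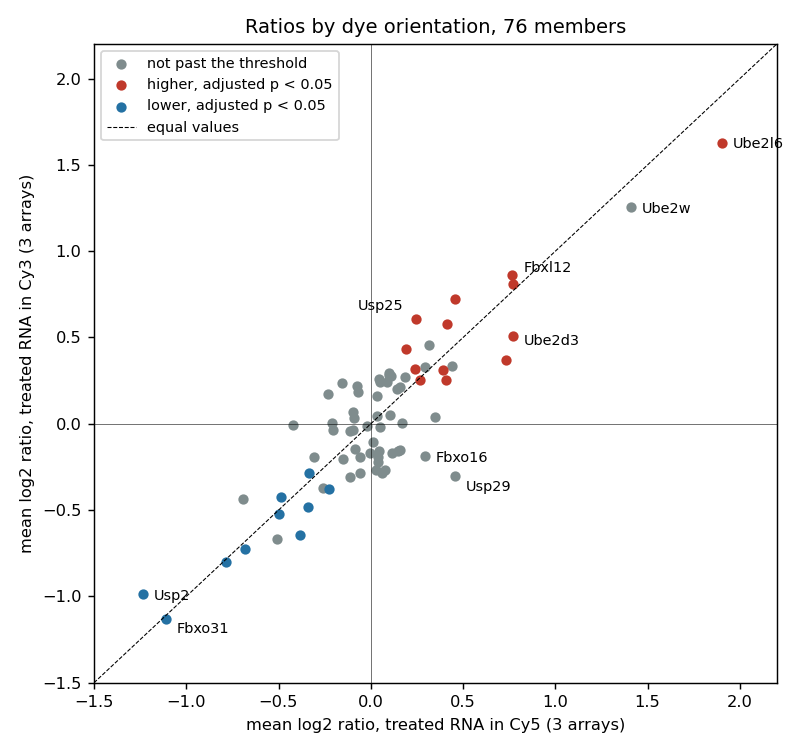
Mean log2 ratio over the 3 arrays with treated RNA in Cy3 (y axis) against that over the 3 arrays with treated RNA in Cy5 (x axis) for the 76 genes, coloured by limma's call, with a dashed line of equal values. Ube2l6, Usp2 and Fbxo31 have the same sign in both orientations, whereas Usp29 has opposite signs. With treated RNA in Cy5 and in Cy3, Ube2l6 averages 1.90 and 1.63, Usp2 -1.23 and -0.99, and Fbxo31 -1.11 and -1.13.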

How the data were processed

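The authors deposited log2 ratios of the 2 channels of each array. This scale follows from the sign and range of the values. How they were normalized is not given in the sources used here. Exact zeros (9.56% to 12.86% of the 16281 probes of an array) were taken as missing. Ratios of the arrays with treated RNA in Cy3 had their sign reversed, so that all read treated over untreated. Only probes measured on all 6 arrays were used (13418), and those naming 1 symbol in the platform annotation were averaged per gene, for 9607 genes. Of the 81 members, 80 kept their symbol in RefSeq's gene table, and 15 of the 76 measured members are means of several probes. The 2 arrays of a set were averaged and tested against 0 across all genes by a two-sided moderated test in limma 3.58.1 under R 4.3.3 (lmFit, eBayes) and Benjamini-Hochberg adjustment. The procedure was first tested on simulated data. Promoter sequences are RefSeq's (GRCm38.p6). Figures were drawn in Python 3.11.15.

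Members and lists were chosen with earlier results of these data known. Named genes were the called members with one sign on all arrays (up to 15 rises and 15 falls), the 2 highest and 2 lowest of each family, 35 genes fixed by name and the 2 highest and lowest called genes of each pathway list; any other gene, such as Ube2g1, Fbxo30, Ube2d2a, Cul1, Skp1 or Traf6, was named after its values were seen. Alternatives covered zeros, filter, centring, scaling, replicate block, moderation, sets, dyes and probe averaging.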

Additional observations from a re-analysis of the deposited data

How the results depend on the processing

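Over 13 alternatives, 9 of the 23 changed members kept their calls throughout (Ube2l6, Fbxl12, Ube2d3, Usp11, Fbxo6, Ube2o, Ube2t, Usp2 and Fbxo31) and 14 lost theirs at least once, without a change of sign in any called member. Of 988 gene values under an alternative, 922 kept their side of the threshold, 31 lost and 35 gained a call. With 6 arrays as separate replicates (no replicate block), 35 members were called, 19 up and 16 down. With set as a random replicate block there were 27, 14 up and 13 down, and 32.1% of all genes. Same-numbered arrays deviated together at r = 0.188, 0.05 and 0.544 in sets 1, 2 and 3, lowest in set 2, and the labels state no pairing. Leaving out each set gave 17 to 29 called members, 9 to 15 up and 8 to 14 down, and 22.5% to 31.1% of all genes. With treated RNA in Cy5 only 17 were called, 9 up and 8 down, and 22.5% of all genes. Of the 23, 10 were then lost (Ube2b, Ube2f, Ube2h, Ube2l3, Ube3b, Usp12, Usp24, Usp25, Usp33 and Usp48). With treated RNA in Cy3 only 25 were called, 12 up and 13 down, and 32.3% of all genes. Ube2f and Usp19 were then lost. Centring on nonzero ratios gave 13 up and 10 down, and quantile normalization 14 and 11. Of all genes 31.6% and 32.3% were called in these settings. With exact zeros kept as ratios of 0, 17 of then 81 tested members were called, and 19.7% of all genes. Fbxo5, Fbxo15, Ube2cbp and Usp33 were among those lost (adjusted p = 0.0592, 0.0708, 0.0512 and 0.106). These ratios hold no spot brightness, so dim probes could not be set apart.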

Other observations

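Some close relatives stood apart and others did not. Ube2l6 lay above Ube2l3 in each set, with Ube2l6 at 1.76, 1.78 and 1.75 and Ube2l3 at -0.50, -0.39 and -0.64. Ube2d3 (0.71, 0.67 and 0.54 by set) likewise stood above Ube2d2a (-0.68, -1.03 and 0.02) in every set. By contrast, Ube2g1 and Ube2g2 had like means (-0.22 and -0.21), as did Usp17la and Usp17lc (each -0.03), though near-identical copies may share probes. Fbxo31 and Fbxo4, which share cyclin D1 as a known target, stood at -1.12 and 0.19. These pairs were chosen after their values were seen and were not tested.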
